A study of Mus musculus with 8 samples.

Results

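Motor neuron cultures with a knockout of Litchi were compared with control cultures on day 7 of differentiation, on 4 of the 8 arrays of the series. The 4 arrays were chosen by their titles, which name the genotype, the day and the replicate: 2 arrays of control cells and 2 of knockout cells on day 7. The other 4 arrays held the same genotypes, 2 each, on day 9. All groups came from male mouse embryonic stem cells, and every title names Hb9GFP, a fluorescent reporter of a gene that motor neurons switch on as they leave the cell cycle. Both genotypes received retinoic acid (RA) and Sonic hedgehog (Shh) from day 2 to day 5, were split from whole embryoid bodies into single cells on day 5, and were kept with the growth factor GDNF until sampling. No label names a sort on the reporter, so the RNA is taken here as that of whole dissociated cultures. How many knockout clones were used, and whether replicates came from separate cultures, is not given in the sources used here, so the spread behind each p-value may be technical only. Litchi was found 0 times among the symbols and synonyms of the gene table. Its level is therefore not given, and the genotypes rest on the titles alone.

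Spinal motor neurons form in the ventral neural tube, where Shh sets the ventral progenitor domains and RA the caudal, spinal identity. Olig2 marks their progenitors, and Lhx3 and Isl1 act together in young motor neurons to turn on genes of the cholinergic transmitter. Such cultures also hold progenitors, other neurons and some cells that never became neural. The gene groups described first below are imprinted genes, which are expressed from 1 parental allele, several gene families of placenta and germ line, and interferon pathway genes. In the interferon pathway, sensors of foreign or misplaced nucleic acids lead to the secretion of interferons. Their receptors signal to transcription factors, Irf9 among them, that bind the interferon-stimulated response element (ISRE) in promoters of antiviral effector genes.

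Each value below is the log2 of a probe's processed signal minus the 75th percentile of its array, so 0 is that percentile. The 75th percentile was 1434 and 566 intensity units in replicates 1 and 2 of the control and 1444 and 572 in those of the knockout, so brightness followed the replicate number and not the genotype. Between 55.9% and 67.9% of probes were well above background, and the lower shares were those of replicate 2. Across genes, arrays of a genotype correlated at a Pearson r of 0.991 in both genotypes and arrays of different genotypes at 0.980 to 0.988, without a p, since genes are not independent replicates.

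A gene was tested if its probe was above background in both replicates of a genotype on day 7, which left 23815 genes, of which 66 passed an adjusted p under 0.05 (0.277%): 31 were higher in knockout cells (0.13%) and 35 lower (0.147%). The test was limma's moderated test on all 8 arrays, two-sided, with Benjamini-Hochberg adjustment over all genes tested, and every adjusted p below comes from it. All 66 had both knockout arrays on the same side of both control arrays, and in 4 of them both arrays of 1 genotype were below background, which leaves only a bound. The log2 changes of the other 62 were between 1.03 and 3.85 in size, with a median size of 1.84. The median change of all genes was -0.015, and 48.1% of changes were positive. By unadjusted p under 0.05, 2024 genes (8.5%) were higher and 2546 (10.7%) lower, and 23.2% of genes had both knockout arrays above both control arrays and 25.4% below. These shares are the background against which counts within a gene group are read. The gene groups were chosen with earlier results of these data known, so their counts are descriptions and no tests. Which genes passed rests on single day 7 arrays. Without any 1 of the 4, fewer genes passed, and those that did were not all among the 66. The count fell furthest without the second control array. With the day 7 arrays only, 2 of the 4 genes that passed were among the 66. Sizes of change in dim probes also rest on the background correction and on an added offset. The normexp setting corrected the median signal for background and then added 50 intensity units. With it, 17 of the 66 log2 changes were smaller by over 1.5 times. Of these 17, 16 were no longer called, among them all 11 genes with a day 7 array below background. The parts of the correction and the offset were not tested apart. The bounds given below were therefore set on the processed signal and do not hold under normexp.

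**Figure D1:**
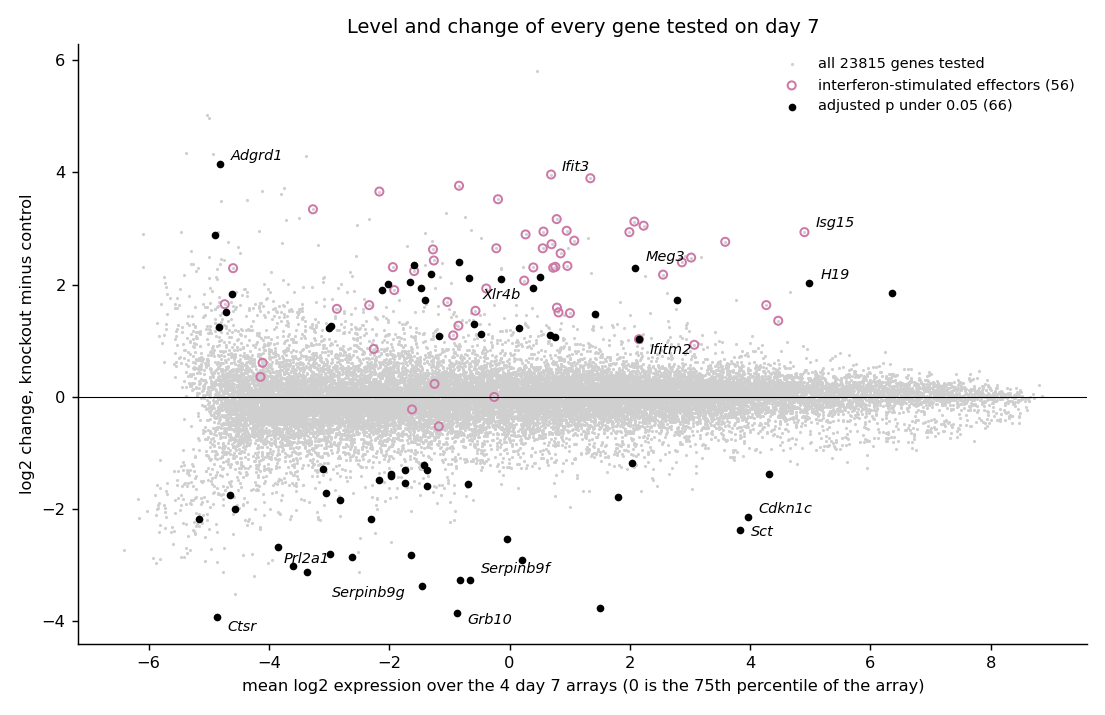
The log2 change on day 7 (knockout minus control, vertical axis) is plotted against the mean log2 expression over the 4 day 7 arrays (horizontal axis, where 0 is the 75th percentile of an array) for each of the 23815 genes tested. Black points are the 66 genes with an adjusted p under 0.05 and open pink circles the 56 interferon-stimulated effectors, nearly all of which lie above 0 without reaching that threshold.

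**Figure D2:**
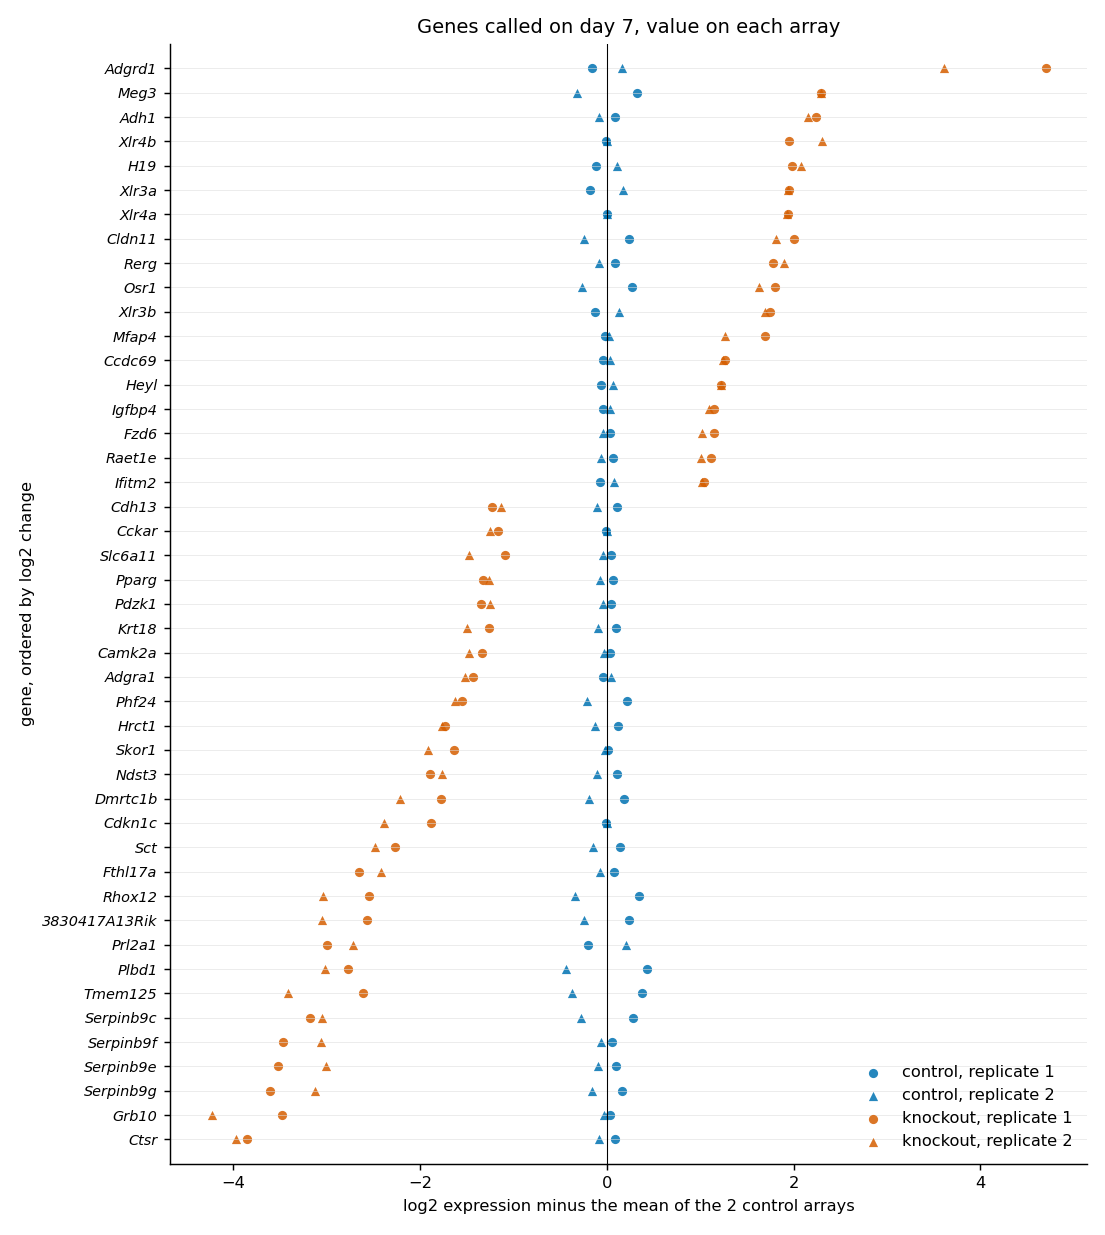
For each of the 45 called genes with a symbol (rows, ordered by log2 change), the value on each of the 4 day 7 arrays is shown as log2 expression minus the mean of the 2 control arrays. Blue marks control and orange knockout, circles replicate 1 and triangles replicate 2, and in every row both knockout arrays lie on the same side of both control arrays.

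Imprinted genes changed in both directions. Meg3, the maternally expressed long noncoding RNA of the Dlk1-Dio3 cluster on chromosome 12, stood at 1.26 and 0.62 in the control arrays and at 3.23 and 3.23 in the knockout arrays. It rose by 2.29 ± 0.22 (log2 change ± SE, here and below, adjusted p = 0.0231), and the control arrays were farther from each other than the knockout arrays. Mirg, another maternal noncoding RNA of the cluster, read 0.52 and 0.35 in control and 1.82 and 1.56 in knockout cells, a difference of 1.25 ± 0.21 that missed the threshold (adjusted p = 0.0721). The paternally expressed members differed from each other: Dlk1, which encodes a Notch-related membrane protein, differed by 0.86 ± 0.29 (adjusted p = 0.188) and Dio3, the enzyme that inactivates thyroid hormone, by -1.48 ± 0.34 (adjusted p = 0.107). Neither passed. Rian had no probe matched by name.

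Also higher in knockout cells were 3 called probes for intergenic transcripts that the array names only by position on chromosome 12 of mm9. They are named here after their values were seen. The probe of chr12:110894095-110899517 read -1.71 and -1.77 in control and 0.35 and 0.40 in knockout cells, and rose by 2.12 ± 0.14 (adjusted p = 0.00918). The probe of chr12:110909258-110913909 rose by 2.01 ± 0.16 (adjusted p = 0.0132) and that of chr12:110842154-110883594 by 1.30 ± 0.14 (adjusted p = 0.0335). Together the 3 regions span 71.8 kb, and groups did not overlap at any of them. No annotation of mm9 was used, so the gene they belong to is not named.

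H19, the maternally expressed noncoding RNA next to Igf2, rose by 2.03 ± 0.20 (adjusted p = 0.0289), from 3.86 and 4.08 in the control arrays to 5.95 and 6.05 in the knockout arrays. Its neighbour Igf2, the paternally expressed growth factor, read -0.42 and -0.41 in control and 0.14 and -0.45 in knockout cells, so its groups overlapped. Grb10, an adaptor that dampens insulin receptor signalling, had the largest fall of any called gene whose probe was above background in all 4 arrays: it read 1.08 and 1.02 in control and -2.42 and -3.18 in knockout cells, a fall by 3.85 ± 0.28 on the log2 scale (adjusted p = 0.00921). Cdkn1c, the maternally expressed cell cycle inhibitor p57, went from 5.02 and 5.04 to 3.15 and 2.64 and fell by 2.14 ± 0.24 (adjusted p = 0.0364). In the same imprinted domain of chromosome 7, the transporter gene Slc22a18 differed by -1.71 ± 0.26 (adjusted p = 0.0658) and Phlda2, which restrains placental growth, by -1.41 ± 0.57 (adjusted p = 0.249). Zim1, a maternally expressed zinc finger gene, was dim on 1 knockout array and differed by -2.12 ± 0.38 (adjusted p = 0.0801), and Zrsr1, a paternally expressed splicing factor gene on chromosome 11, by 0.80 ± 0.12 (adjusted p = 0.0652). Of 53 imprinted genes tested outside the Dlk1-Dio3 cluster, 1 rose and 2 fell, and the median change was 0.02. By unadjusted p, 14 were higher and 12 lower (background 8.5% and 10.7%). The list's median was near that of all genes. Larger shares of its members than of all genes had an unadjusted p under 0.05 in each direction. The list was chosen with earlier results of these data known, so these shares are a description and no test.

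The list with the most falls was the Serpinb9 family, serine protease inhibitors of chromosome 13 whose namesake protects cells from granzyme B and whose rodent copies are known mostly from placenta. Serpinb9f read 1.03 and 0.92 in control and -2.49 and -2.08 in knockout cells and fell by 3.26 ± 0.21 (adjusted p = 0.00918). Serpinb9g went from 0.39 and 0.06 to -3.39 and -2.90 and fell by 3.37 ± 0.23 (adjusted p = 0.00918), and Serpinb9e from 0.91 and 0.72 to -2.71 and -2.19, a fall by 3.27 ± 0.23 (adjusted p = 0.00918). The 3 copies thus differed between genotypes by nearly the same amount, and the distance between groups was many times the distance within them. Serpinb9c, at -1.54 and -2.09 in control and -4.99 and -4.86 in knockout cells, fell by 3.11 ± 0.36 (adjusted p = 0.0388, and -1.81 with normexp, where it missed the threshold), and Serpinb9d, dim on 1 knockout array, differed by -2.97 ± 0.41 (adjusted p = 0.0603). Serpinb9 itself moved the other way in its values, from -4.37 and -5.18 to -3.02 and -3.49, a difference of 1.52 ± 0.43 (adjusted p = 0.148) with 1 control array below background. In all, 4 of 6 members tested fell, and the median was -3.19. Among 6 other serpin B genes, 0 were called and 2 were lower by unadjusted p, with a median of 0.03.

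The promoters of the 2 copies most alike in promoter sequence are shown. RefSeq promoters (GRCm38.p6, 250 bases before to 50 after the start) of Serpinb9e (chr13:33249358-33249657, + strand) and Serpinb9g (chr13:33484540-33484839, + strand) were 93.4% identical, and capitals mark the 16 bases of each that the alignment did not match.
Serpinb9e: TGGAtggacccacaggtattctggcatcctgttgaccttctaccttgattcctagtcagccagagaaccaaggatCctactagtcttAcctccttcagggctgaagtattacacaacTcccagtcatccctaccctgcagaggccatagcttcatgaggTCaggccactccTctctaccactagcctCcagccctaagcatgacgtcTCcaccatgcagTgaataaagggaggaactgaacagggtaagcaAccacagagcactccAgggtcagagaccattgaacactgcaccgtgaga
Serpinb9g: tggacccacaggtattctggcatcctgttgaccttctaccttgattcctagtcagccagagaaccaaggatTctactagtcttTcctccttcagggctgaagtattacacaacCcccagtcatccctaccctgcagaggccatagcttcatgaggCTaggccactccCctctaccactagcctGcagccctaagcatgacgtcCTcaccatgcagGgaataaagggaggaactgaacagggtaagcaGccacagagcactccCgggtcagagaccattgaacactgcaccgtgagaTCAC
The promoter of Serpinb9c shared 62.3% to 65.1% of its bases with those of the other copies, and that of Serpinb9 only 47.0% to 51.0% with those of the copies. Sequences of transcripts and probes were not compared. A probe may read more than 1 copy, so how the fall was divided among the copies is uncertain.

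Genes of placental lineages had mostly lower values in knockout cells. Prl2a1, a placental prolactin relative on chromosome 13, read -1.39 and -0.98 in control and -4.18 and -3.90 in knockout cells and fell by 2.86 ± 0.23 (adjusted p = 0.0132). Of 10 prolactin family genes tested, 1 fell, 6 were lower by unadjusted p, and the median was -1.72. Among those that missed the threshold, Prl3d2 differed by -1.62 ± 0.26 (adjusted p = 0.0679), Prl3d1 by -0.998 ± 0.24 (adjusted p = 0.114) and Prl4a1 by -2.77 ± 0.67 (adjusted p = 0.117). The SE of Prl4a1 was the widest of the 3, and its knockout arrays read -4.96 and -2.83. The list's median was -1.12 without the first knockout array and also -1.12 with normexp.

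Ctsr, a placental cathepsin protease, read -2.83 and -2.998 in control cells and was not well above background on either knockout array, at -6.77 and -6.88. A probe below background has only a bound there. It was set at the lowest signal of any probe well above background on the array, or at the probe's own reading where that was higher. A probe can be below background and still read above that limit, so every such bound is approximate. By that bound Ctsr was at least 6.38-fold lower (adjusted p = 0.0308). Tpbpb, a trophoblast-specific secreted protein gene, was likewise dim in both knockout arrays, at least 6.84-fold lower by the bound, with an adjusted p of 0.0771 that missed the threshold. Ctsj differed by -2.19 ± 0.57 (adjusted p = 0.130). Of the 5 cathepsin and Tpbp genes tested, 1 fell, 3 were lower by unadjusted p and the median was -2.19. That median was -1.29 with normexp, which put Ctsr at -1.29 too (adjusted p = 0.287), and -0.61 over the members above background on all 4 day 7 arrays.

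The keratin Krt18, of simple epithelia and trophoblast, fell by 1.38 ± 0.16 (adjusted p = 0.0388), from 5.11 and 4.91 to 3.75 and 3.52. Its partner Krt8 differed by -1.23 ± 0.18 (adjusted p = 0.0628) and Krt7 by -1.89 ± 0.28 (adjusted p = 0.0625). Of the transcription factors that direct trophoblast, Gata2, which also serves in spinal interneurons, differed by -1.18 ± 0.15 (adjusted p = 0.0541) and Hand1 by -1.40 ± 0.27 (adjusted p = 0.0870). Among 14 trophoblast regulators, 1 fell, 11 were lower by unadjusted p, 12 had knockout arrays below control arrays, and the median was -1.14.

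The trophoblast marker list read the same way. Tpbpa and Elf5, which define trophoblast subtypes, were below background on all 4 arrays, and 8 of 10 markers on the array were above background on some array. Their summed level (linear, as multiples of the 75th percentile) was 184 and 285 in control and 137 and 150 in knockout cells. A single bright probe, Gcm1, made up 98.5% to 99.6% of that sum, and without it the sum was 2.75 and 2.67 in control and 0.575 and 0.859 in knockout cells. Fewer cells of a type and less RNA per cell cannot be told apart in RNA pooled from many cells, here or for any other group of genes.

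Called genes of 2 X-linked families moved in opposite directions. The Xlr3 and Xlr4 genes, part of a lymphocyte-regulated family in which some copies are imprinted in brain, rose. Xlr4a went from -0.58 and -0.59 to 1.36 and 1.34 and rose by 1.93 ± 0.15 (adjusted p = 0.0123), and Xlr4b from -0.56 and -0.55 to 1.40 and 1.75, by 2.13 ± 0.22 (adjusted p = 0.0302). Xlr3a, at -2.62 and -2.26 in control and -0.49 and -0.498 in knockout cells, rose by 1.95 ± 0.17 (adjusted p = 0.0155). Xlr3b, at 1.80 and 2.05 in control and 3.67 and 3.62 in knockout cells, rose by 1.72 ± 0.16 (adjusted p = 0.0231). Arrays within a genotype lay close together for all 4 genes. Of 7 Xlr genes tested, 4 rose, all 7 had both knockout arrays above both control arrays, and the median was 1.72. The 3 Xlr5 genes differed less, with 1.21 ± 0.26 for Xlr5c (adjusted p = 0.0950) and 1.08 ± 0.23 for Xlr5b (adjusted p = 0.0981).

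The Xlr4a (chrX:73082458-73082757, - strand) and Xlr4b (chrX:73214083-73214382, + strand) promoters, from the same RefSeq table, are shown because these 2 genes rose together. They were 93.5% identical, and capitals mark the 12 bases of each without a match in the other.
Xlr4a: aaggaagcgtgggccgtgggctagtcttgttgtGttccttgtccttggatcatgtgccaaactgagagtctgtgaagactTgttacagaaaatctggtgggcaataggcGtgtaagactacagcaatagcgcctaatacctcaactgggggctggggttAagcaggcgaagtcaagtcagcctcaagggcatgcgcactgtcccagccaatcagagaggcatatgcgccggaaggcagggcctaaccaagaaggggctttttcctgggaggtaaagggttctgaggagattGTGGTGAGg
Xlr4b: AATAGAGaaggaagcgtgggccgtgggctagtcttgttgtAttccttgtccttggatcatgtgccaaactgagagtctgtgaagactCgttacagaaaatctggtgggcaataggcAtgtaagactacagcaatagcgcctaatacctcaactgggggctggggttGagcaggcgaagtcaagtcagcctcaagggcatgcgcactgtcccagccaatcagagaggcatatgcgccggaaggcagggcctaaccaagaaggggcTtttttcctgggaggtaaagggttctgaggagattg
As with the Serpinb9 copies, a probe may read more than 1 of these genes. The Xlr3a and Xlr3b promoters shared 62.3% of their bases.

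Rhox12, a homeobox gene of the X-linked reproductive homeobox cluster, read -1.24 and -1.92 in control and -4.13 and -4.63 in knockout cells and fell by 2.80 ± 0.30 (adjusted p = 0.0340, and by 1.84 with normexp). Rhox9 differed by -1.38 ± 0.24 (adjusted p = 0.0784) and Rhox6 by -1.49 ± 0.33 (adjusted p = 0.1005). The cluster as a whole had no common direction: 1 of 9 genes fell, 3 were lower and 1 higher by unadjusted p, and the median was 0.03. Other X-linked calls were Fthl17a, a ferritin heavy chain relative, which fell by 2.53 ± 0.18 (adjusted p = 0.00918) from 1.30 and 1.15 to -1.42 and -1.19, Dmrtc1b, a relative of the doublesex genes dim on 1 knockout array, which fell by 2.00 ± 0.24 (adjusted p = 0.0451, and -0.75 with normexp), and 3830417A13Rik, which fell by 2.81 ± 0.29 (adjusted p = 0.0302).

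Of 21 germline genes, 0 were called, 8 were higher and 1 lower by unadjusted p, and the median was 0.39. That median rests on the control arrays: it was 0.036 without the second of them and 0.81 without the first. Dazl, an RNA-binding protein of germ cells, had the smallest p, with 1.95 ± 0.32 (adjusted p = 0.0724). Of 6 genes of the Y chromosome tested, 0 were called, 4 had positive and 2 negative values, and the median was 0.52. The 3 of these on the list of Y-linked genes had positive values: Ddx3y, an RNA helicase, differed by 0.90 ± 0.14 (adjusted p = 0.0676), Eif2s3y, a translation initiation factor, by 0.89 ± 0.13 (adjusted p = 0.0603) and Uty, a histone demethylase relative, by 1.14 ± 0.33 (adjusted p = 0.153). Ddx3y read -0.37 and -0.31 in control and 0.54 and 0.59 in knockout cells. The other 3 were Gm20877 at -1.43 ± 0.34 (adjusted p = 0.113) and Gm20867 at -1.27 ± 0.80 (adjusted p = 0.437), each dim on 1 knockout array, and Rbmy, whose groups overlapped.

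Interferon-stimulated genes were higher in knockout cells as a group, yet only Ifitm2 passed the test across all genes. Of 56 effectors tested, 1 rose, 50 were higher and 1 was lower by unadjusted p (background 8.5% and 10.7%), and 52 had both knockout arrays above both control arrays (background 23.2%). The median change was 2.30, against -0.015 over all genes. The effectors had wide standard errors: 28 of the 56 had an adjusted p under 0.10. The spread estimate is shared with the day 9 arrays, where the effectors' medians, relative to each gene's day 7 mean, were 0.94 and 2.31 in the control arrays and 2.52 and 2.28 in the knockout arrays. On day 7 those medians were -0.76 and -1.38 in control and 1.31 and 0.96 in knockout cells. How many effectors passed depended on the samples and model that set the spread. Without either control day 9 array, or without both, a setting chosen after seeing the data, 142 genes passed and 29 effectors rose. With an intensity trend in the variance model 353 passed and 27 effectors rose. With the day 7 arrays only, 4 genes passed and 1 effector rose, and without either knockout day 9 array 18 genes passed and 0 effectors. Without any 1 of the 4 day 7 arrays, 0 effectors passed.

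The effectors were also divided by whether their promoter holds an ISRE. The motif GAAANNGAAA was searched on both strands of RefSeq promoters, with overlapping matches counted. It was found in 26 of 50 promoters of tested effectors (52%), which cover 45 of the 56 effectors. Of the promoters of all genes tested, 434 of 14821 held it (2.93%), and of all 32851 promoters 1131 (3.44%). The effectors were listed as interferon-stimulated genes, so their larger share is no independent result. The median change was 2.71 in the 24 effectors with a match and 1.90 in the 21 without. Of the other genes tested, 17.1% of the 392 with a match were higher by unadjusted p, against 10.4% of the 11214 without, and their medians were 0.10 and 0.03. The gamma-activated site TTCNNNGAA was found in 22% of effector promoters, 7.04% of promoters of all genes tested and 8.3% of all promoters. The promoters of 4 effectors are shown, with each ISRE match in capitals: Ifitm2 (chr7:140955912-140956211, - strand), the called gene, with 1 match, and Isg15 (chr4:156200769-156201068, - strand) with 3 overlapping matches, Bst2 (chr8:71537423-71537722, - strand) and Ifit1 (chr19:34640639-34640938, + strand) with 2 each.
Ifitm2: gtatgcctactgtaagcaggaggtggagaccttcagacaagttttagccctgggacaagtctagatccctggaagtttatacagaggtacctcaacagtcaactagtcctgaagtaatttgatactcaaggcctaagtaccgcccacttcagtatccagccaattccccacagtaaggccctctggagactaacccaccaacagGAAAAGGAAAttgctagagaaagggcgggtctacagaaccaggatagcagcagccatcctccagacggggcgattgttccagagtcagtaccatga
Isg15: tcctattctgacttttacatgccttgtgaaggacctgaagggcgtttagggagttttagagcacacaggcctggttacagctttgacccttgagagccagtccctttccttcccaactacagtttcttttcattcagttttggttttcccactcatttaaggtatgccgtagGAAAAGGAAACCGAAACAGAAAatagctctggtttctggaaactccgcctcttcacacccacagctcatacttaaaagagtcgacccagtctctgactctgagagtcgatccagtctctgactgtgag
Bst2: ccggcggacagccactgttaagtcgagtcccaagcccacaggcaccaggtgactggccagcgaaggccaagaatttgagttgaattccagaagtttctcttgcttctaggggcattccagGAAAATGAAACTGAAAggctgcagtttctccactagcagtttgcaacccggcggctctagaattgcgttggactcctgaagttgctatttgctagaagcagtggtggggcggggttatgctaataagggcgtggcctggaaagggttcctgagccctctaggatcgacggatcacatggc
Ifit1: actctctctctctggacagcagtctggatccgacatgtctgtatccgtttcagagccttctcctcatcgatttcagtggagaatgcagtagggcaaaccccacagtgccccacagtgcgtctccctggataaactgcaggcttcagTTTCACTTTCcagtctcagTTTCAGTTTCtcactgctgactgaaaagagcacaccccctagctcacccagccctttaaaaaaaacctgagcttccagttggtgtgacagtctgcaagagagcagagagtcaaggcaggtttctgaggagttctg
Counted from the start site, the match of Ifitm2 begins at -46 and the first match of Isg15 at -78. A match is a stretch of letters and was not tested as a binding site.

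Ifitm2, a membrane protein that blocks virus entry, read 1.56 and 1.71 in control and 2.68 and 2.66 in knockout cells and rose by 1.03 ± 0.13 (adjusted p = 0.0497). Its neighbour Ifitm3, with the same function, went from 3.42 and 3.49 to 4.97 and 5.20, a difference of 1.64 ± 0.41 (adjusted p = 0.121). Ifitm1, the third family member, was the only effector lower by unadjusted p, at -0.52 ± 0.16 (adjusted p = 0.158). The values of the family thus did not share a sign.

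Isg15, a ubiquitin-like protein that is attached to other proteins, read 3.59 and 3.28 in control and 6.37 and 6.37 in knockout cells, a difference of 2.93 ± 0.45 (adjusted p = 0.0652). Bst2, which tethers budding virus to the cell, read 1.82 and 1.74 in control and 4.39 and 4.13 in knockout cells, a difference of 2.48 ± 0.40 (adjusted p = 0.0684). Ifit1, which binds foreign 5' RNA ends, read -1.43 and -2.48 in control and 1.66 and 1.47 in knockout cells, a difference of 3.52 ± 0.71 (adjusted p = 0.0903). In all 3 genes the groups were far apart, and the control arrays were farther from each other in Ifit1 than in the others. Oasl2, an oligoadenylate synthetase relative, differed by 3.05 ± 0.53 (adjusted p = 0.0784), Rtp4, a receptor transporter that interferon induces, by 2.76 ± 0.39 (adjusted p = 0.0603) and Cxcl10, a chemokine, by 2.30 ± 0.33 (adjusted p = 0.0603). Zc3hav1, which binds viral RNA and recruits its decay, differed by 1.90 ± 0.29 (adjusted p = 0.0632), and Irgm1, an immunity-related GTPase, by 2.93 ± 0.45 (adjusted p = 0.0653). Of the 56 effectors, 13 lie on chromosome 11, as Irgm1 does, where the median of all named genes was 0.32. The median was 2.18 for those 13 and 2.31 for the other 43.

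The interferons themselves were dim. Of 11 ligand genes tested, 8 were higher by unadjusted p and 0 were called, and the median was 0.93, against 0.49 with normexp and 0.40 over the members above background on all 4 day 7 arrays. Ifna4, an early type I interferon, was below background in both control arrays, at -6.16 and -6.08, and read -2.64 and -2.58 in knockout cells, at least 6.73-fold higher by the bound (adjusted p = 0.0628). Ifnb1, the other early type I interferon, read -4.40 and -5.20 in control, with 1 array below background, and -2.15 and -3.31 in knockout cells, a difference of 2.07 ± 0.57 (adjusted p = 0.138). Ifna13 differed by 1.59 ± 0.25 (adjusted p = 0.0679), Ifna5 by 1.14 ± 0.20 (adjusted p = 0.0784) and Ifnab by 0.88 ± 0.16 (adjusted p = 0.0810). Ifnl3, a type III interferon, differed by -0.25 ± 0.16 (adjusted p = 0.445). Interferon alpha genes are near-copies of each other, and probes may read more than 1. On day 9 the same ligands were lower in knockout cells, with a median of -1.36 and a difference of -3.16 for Ifna4. The difference between the days was negative in all 11 and had an unadjusted p under 0.05 in 9, but the smallest adjusted p was 0.238.

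Among 21 nucleic acid sensors and adaptors, 9 were higher by unadjusted p, 15 had both knockout arrays above both control arrays, 0 were called and the median was 0.59. Ddx58, which encodes the RNA sensor RIG-I, read 1.28 and 1.07 in control and 3.37 and 3.28 in knockout cells, a difference of 2.16 ± 0.33 (adjusted p = 0.0652). Ifih1, the RNA sensor MDA5, differed by 2.31 ± 0.53 (adjusted p = 0.107) and Trim25, the ubiquitin ligase that activates RIG-I, by 1.87 ± 0.27 (adjusted p = 0.0603). The DNA sensor Cgas and its adaptor Sting1 differed by 1.36 ± 0.26 (adjusted p = 0.0881) and 1.17 ± 0.22 (adjusted p = 0.0881), and the RNA-activated kinase Eif2ak2 by 1.59 ± 0.31 (adjusted p = 0.0881). Adaptors and kinases downstream differed less, with 0.27 ± 0.15 for Mavs (adjusted p = 0.369) and 0.35 ± 0.22 for Tbk1 (adjusted p = 0.440).

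Of 17 receptors and signalling genes, 7 were higher by unadjusted p, 0 were called and the median was 0.58. Irf7, which amplifies interferon production, read -3.66 and -4.48 in control and -0.92 and -1.08 in knockout cells, a difference of 3.07 ± 0.63 (adjusted p = 0.0907). Irf9 differed by 1.32 ± 0.19 (adjusted p = 0.0603). Genes that dampen the pathway read higher too: Usp18, which removes Isg15 and blocks the receptor, differed by 2.497 ± 0.33 (adjusted p = 0.0541) and Socs1, an inhibitor of Jak kinases, by 1.45 ± 0.25 (adjusted p = 0.0784). The receptor gene Ifnar1 differed by -0.38 ± 0.16 (adjusted p = 0.266).

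MHC class I genes, which display peptides on the cell surface, were higher in level with a wide spread. Of 25 tested, 12 were higher by unadjusted p, 23 had both knockout arrays above both control arrays, 0 were called and the median was 1.18. B2m, the light chain of the complex, read 2.13 and 1.85 in control and 3.57 and 3.53 in knockout cells, a difference of 1.56 ± 0.66 (adjusted p = 0.262). H2-K1, a classical heavy chain, read 3.44 and 3.55 in control and 4.60 and 4.55 in knockout cells, a difference of 1.08 ± 0.58 (adjusted p = 0.364). The day 7 arrays of each genotype were thus close to each other in both genes, while the SE, which day 9 arrays share, was wide. The peptide transporter genes Tap1 and Tap2 differed by 1.22 ± 0.37 (adjusted p = 0.160) and 2.29 ± 0.63 (adjusted p = 0.140), the loading factor Tapbpl by 1.15 ± 0.23 (adjusted p = 0.0907) and H2-M3, which presents bacterial peptides, by 2.15 ± 0.65 (adjusted p = 0.163). Of 9 genes of the NF-kB branch, 3 were higher by unadjusted p and the median was 0.49, with the chemokine Ccl2 at 1.26 ± 0.26 (adjusted p = 0.0944). That median was 0.26 without the second control array, 0.32 without the first knockout array and 0.25 over the members above background on all 4 day 7 arrays. The summed level of macrophage markers overlapped between genotypes beside these values, at 2.40 and 4.95 in control and 1.81 and 4.56 in knockout cells. Single markers were divided. Itgam, whose groups overlapped, read 0.24 and 1.88 in control and 0.06 and 1.88 in knockout cells. Csf1r differed by -0.76 ± 0.14 (adjusted p = 0.0852), Aif1 by 0.26 and Fcer1g by 0.27, each without overlap of its groups. Cx3cr1 and Tyrobp were below background on all 4 arrays.

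**Figure D3:**
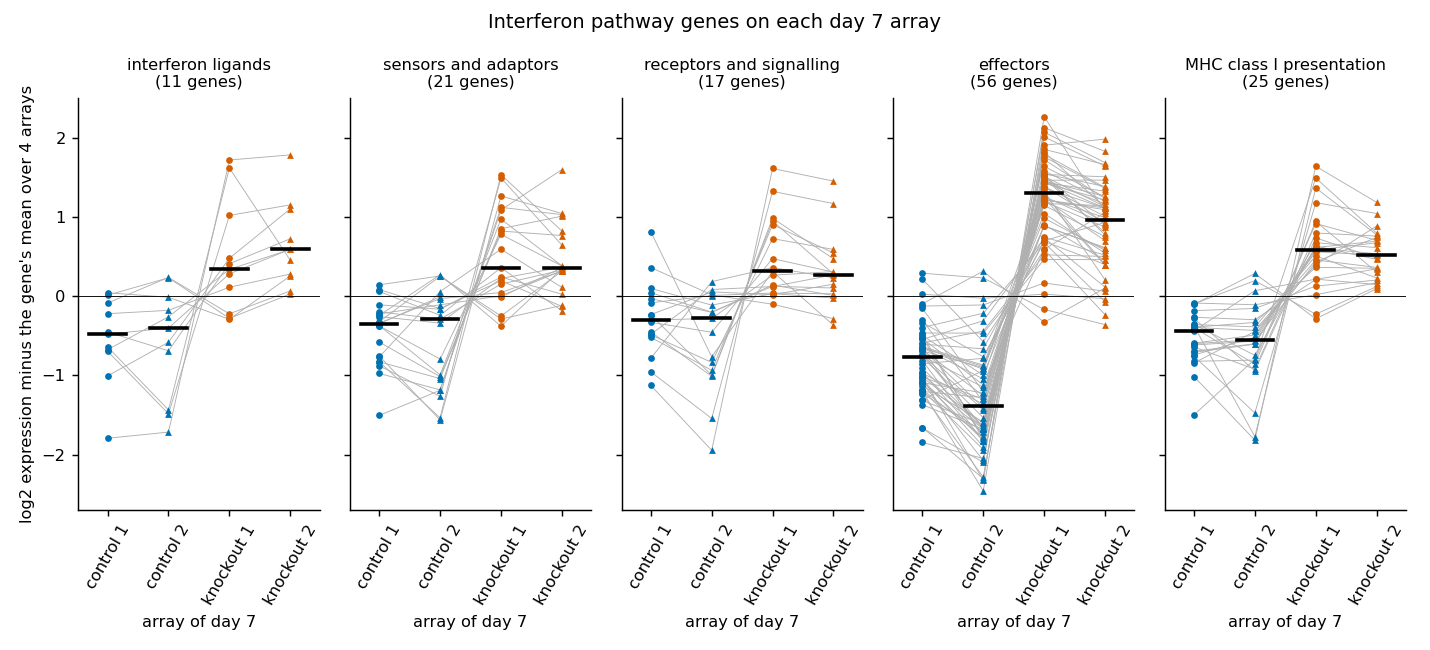
Each point is 1 gene on 1 day 7 array, as log2 expression minus the gene's mean over the 4 arrays, and grey lines join a gene's values. Panels hold the ligands, sensors, signalling genes, effectors and MHC class I genes, and black bars are medians. The median effector was at -0.76 and -1.38 in the control arrays and at 1.31 and 0.96 in the knockout arrays.

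Motor neuron identity genes were mostly lower in level, with 10 negative and 4 positive changes. Of 14 factors tested, 0 were called, and 2 were higher and 3 lower by unadjusted p. In 8 both knockout arrays lay below both control arrays and in 3 above (background 25.4% and 23.2%). The median was -0.33, or -0.498 and -0.17 without the first and the second knockout array. Lhx3 read 3.20 and 3.40 in control and 4.21 and 4.28 in knockout cells, a difference of 0.95 ± 0.15 (adjusted p = 0.0708), while Isl1 read 1.57 and 1.35 in control and 0.69 and 0.86 in knockout cells, a difference of -0.68 ± 0.47 (adjusted p = 0.478). Ebf1, Ebf2 and Onecut2, transcription factors of maturing neurons, differed by -1.05 ± 0.17, 0.93 ± 0.29 and -0.91 ± 0.17 (adjusted p = 0.0720, 0.170 and 0.0807). The summed level of 11 motor neuron markers, all above background, was 59.4 and 60.8 in control and 55.1 and 59.0 in knockout cells. Markers of the labelled cell type were thus present in both genotypes. Lhx3 was the only marker with both knockout arrays above both control arrays, at 9.19 and 10.6 in control and 18.5 and 19.4 in knockout cells on the linear scale. Slc10a4 differed by 0.11 with overlapping groups. Without Lhx3, left out because of its values, the sum was 50.24 and 50.25 in control and 36.6 and 39.5 in knockout cells.

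Cholinergic genes were mostly lower in level: 0 of 11 were called, 3 were lower by unadjusted p, 8 had knockout arrays below control arrays, and the median was -0.49, or -0.31 without the first knockout array. Chat, which makes acetylcholine, read 0.44 and 0.19 in control and -0.64 and -0.35 in knockout cells, a difference of -0.81 ± 0.23 (adjusted p = 0.150). The choline transporter Slc5a7 differed by -0.95 ± 0.40 (adjusted p = 0.264), and by -0.43 or -1.47 without the first or the second knockout array, which read -1.42 and -0.37. Calca, which encodes the peptide CGRP, differed by -0.98 ± 0.22 (adjusted p = 0.103) and the intermediate filament gene Prph by -0.66 ± 0.25 (adjusted p = 0.232). Of 14 genes of motor columns and pools, 2 were higher and 4 lower by unadjusted p. Phox2a, a factor of the cranial visceral and branchial motor neurons, read 3.24 and 3.25 in control and 1.40 and 1.93 in knockout cells, a difference of -1.58 ± 0.21 (adjusted p = 0.0551), and Tbx20, a factor of the same neurons, differed by -1.62 ± 0.22 (adjusted p = 0.0573). Aldh1a2, the RA-making enzyme of limb-innervating motor neurons, differed by 1.05 ± 0.15 (adjusted p = 0.0603), and Runx1, which marks some cervical motor neurons, by -1.12 ± 0.16 (adjusted p = 0.0607).

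Hox genes, which set position along the spinal cord, had 3 of 24 higher and 5 lower by unadjusted p, 0 called and a median of -0.14. Hoxd3 differed by -0.87 ± 0.16 (adjusted p = 0.0801), Hoxd4 by -0.60 ± 0.19 (adjusted p = 0.167), Hoxd8 by 0.54 ± 0.14 (adjusted p = 0.124) and Hoxc6, a brachial gene, by 1.30 ± 0.43 (adjusted p = 0.185, and 0.78 without the second control array). Spinal progenitor factors were as divided, with 6 of 18 higher and 5 lower and a median of -0.05. Olig2 read 0.70 and 0.95 in control and 1.71 and 1.87 in knockout cells, a difference of 0.97 ± 0.37 (adjusted p = 0.226). Dbx1, Dbx2 and Pax6, which mark more dorsal progenitor domains, differed by 1.74 ± 0.42, 1.51 ± 0.24 and 1.40 ± 0.32 (adjusted p = 0.119, 0.0705 and 0.109). Heyl, a transcriptional repressor of the Notch pathway, rose by 1.22 ± 0.13 (adjusted p = 0.0340), from -0.51 and -0.38 to 0.77 and 0.77. The wider list of 23 Notch and proneural genes, to which Heyl was not assigned, had 4 higher and 4 lower by unadjusted p and a median of 0.05.

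Floor plate and V3 genes, of the most ventral domains, were lower in level: 0 of 14 called, 7 lower and 0 higher by unadjusted p, and a median of -0.52. Shh itself read 2.43 and 2.54 in control and 1.69 and 1.61 in knockout cells, a difference of -0.83 ± 0.13 (adjusted p = 0.0676). Foxa2 differed by -0.58 ± 0.13 (adjusted p = 0.108) and Slit1, an axon repellent, by -0.85 ± 0.14 (adjusted p = 0.0700). The summed level of 8 such markers was 126 and 130 in control and 84.1 and 85.8 in knockout cells, with Sim1, which defines V3 neurons, below background on all 4 arrays. Genes that respond to Hedgehog and RA had the other sign in 5 of 18 by unadjusted p, with a median of 0.41 (0.26 without the first control array) and Gli2, a Hedgehog transcription factor, at 1.21 ± 0.38 (adjusted p = 0.170).

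Genes of mature neurons were lower in level across 6 lists, with 1 call among them. Camk2a, the kinase of the postsynaptic density, fell by 1.41 ± 0.16 (adjusted p = 0.0364), from -1.24 and -1.31 in control to -2.61 and -2.75 in knockout cells. With the mean of its kept probes Camk2a differed by -0.93 and missed the threshold (adjusted p = 0.0817). Of 24 postsynaptic and adhesion genes, it alone was called, 7 were lower and 0 higher by unadjusted p, and the median was -0.36. Of 27 axon cytoskeleton and transport genes, 15 were lower and 0 higher by unadjusted p, and the median was -0.46. Stmn2, which regulates axonal microtubules, differed by -0.63 ± 0.14 (adjusted p = 0.0976) and the kinesins Kif1a and Kif5c by -0.63 ± 0.13 and -0.73 ± 0.16 (adjusted p = 0.0941 and 0.0966). Of 30 synaptic vesicle genes, 13 were lower and 0 higher, with a median of -0.43 and the calcium sensor gene Syt7 at -1.13 ± 0.17 (adjusted p = 0.0638). Of 21 ion channel genes, 11 were lower and 0 higher, with a median of -0.60. Of 30 transmitter receptors, 13 were lower and 0 higher, with a median of -0.47 and the glutamate receptor gene Grm5 at -1.30 ± 0.26 (adjusted p = 0.0881).

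Of 28 clustered protocadherins, surface proteins that give neurons individual labels, 21 were lower by unadjusted p, 25 had knockout arrays below control arrays, 0 were called and the median was -0.57. Pcdha9 read -2.42 and -1.97 in control and -3.22 and -3.01 in knockout cells, a difference of -0.93 ± 0.19 (adjusted p = 0.0917), and Pcdhb7 differed by -1.002 ± 0.23 (adjusted p = 0.108). Beside these lists, the summed level of 10 pan-neuronal markers was 414 and 471 in control and 304 and 322 in knockout cells. Their part in the lower neuronal lists was not tested.

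The remaining called genes with a symbol are given singly, since they were taken from the calls and belong to no list. Skor1, a corepressor of spinal interneurons, fell by 1.78 ± 0.17 (adjusted p = 0.0242), from 2.71 and 2.68 to 1.05 and 0.78. Slc6a11, a GABA transporter, fell by 1.29 ± 0.16 (adjusted p = 0.0487, and -0.67 with normexp), Cckar, a cholecystokinin receptor, by 1.21 ± 0.13 (adjusted p = 0.0355) and Cdh13, a cadherin anchored to the membrane by lipid, by 1.18 ± 0.15 (adjusted p = 0.0487). Ndst3, which sulfates heparan chains, fell by 1.83 ± 0.23 (adjusted p = 0.0481) and the adhesion receptor Adgra1 by 1.48 ± 0.16 (adjusted p = 0.0335). All of these kept both knockout arrays below both control arrays. Phf24 fell by 1.59 ± 0.20 (adjusted p = 0.0481).

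Sct, which encodes the hormone secretin, read 5.16 and 4.87 in control and 2.75 and 2.53 in knockout cells and fell by 2.37 ± 0.17 (adjusted p = 0.00918). Plbd1, a lysosomal phospholipase B relative, went from 2.10 and 1.23 to -1.11 and -1.35 and fell by 2.90 ± 0.36 (adjusted p = 0.0481), and Tmem125, a membrane protein gene dim on 1 knockout array, fell by 3.02 ± 0.34 (adjusted p = 0.0364, and -1.54 with normexp). Its 2 control arrays were farther apart than those of Sct. Pparg, the nuclear receptor of fat storage, fell by 1.30 ± 0.14 (adjusted p = 0.0335), Pdzk1, a scaffold for membrane transporters, by 1.30 ± 0.15 (adjusted p = 0.0364), and Hrct1, dim on 1 knockout array, by 1.75 ± 0.22 (adjusted p = 0.0481, and -0.695 with normexp).

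Genes of connective tissue were higher in level. Of 21 fibroblast, mural and mesenchyme genes, 15 were higher and 0 lower by unadjusted p, 0 were called and the median was 0.93. Thy1, a surface glycoprotein of fibroblasts and of neurons, read -0.91 and -1.65 in control and 1.30 and 0.70 in knockout cells, a difference of 2.28 ± 0.30 (adjusted p = 0.0541). The receptor Pdgfrb differed by 1.17 ± 0.19 (adjusted p = 0.0687), the collagen Col3a1 by 0.89 ± 0.18 (adjusted p = 0.0894) and the proteoglycan Lum by 1.45 ± 0.30 (adjusted p = 0.0911). The summed level of 10 fibroblast markers was 48.4 and 34.2 in control and 94.5 and 71.4 in knockout cells, so the groups did not overlap, with replicate 2 lower than replicate 1 in both. Without the second control array the list's median was 0.66. Muscle genes were dim, with 5 of 12 higher by unadjusted p and a median of 0.88 (0.45 and 1.40 without the second and the first control array, and 0.43 with normexp), and Myf5 was below background on all 4 arrays.

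Mfap4, a protein of elastic microfibrils, rose by 1.48 ± 0.18 (adjusted p = 0.0451), from 0.66 and 0.70 to 2.38 and 1.95. Igfbp4, which binds insulin-like growth factors, rose by 1.12 ± 0.12 (adjusted p = 0.0335), and Osr1, a transcription factor of intermediate mesoderm, by 1.72 ± 0.21 (adjusted p = 0.0475). Adh1, which oxidises alcohols including retinol, read -2.33 and -2.49 in control and -0.18 and -0.26 in knockout cells and rose by 2.20 ± 0.26 (adjusted p = 0.0446). Groups did not overlap in any of the 4 genes. Cldn11, the tight junction protein of myelin, rose by 1.91 ± 0.21 (adjusted p = 0.0364) and was the only call among 12 oligodendrocyte lineage genes, whose median was 0.07.

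Adgrd1, an adhesion receptor, was below background in both control arrays, at -7.06 and -6.73, and read -2.19 and -3.29 in knockout cells, at least 6.14-fold higher by the bound (adjusted p = 0.0231). With normexp its log2 change was 0.81, under that bound, and missed the threshold (adjusted p = 0.434). Rerg, a small GTPase, and Ccdc69, a coiled-coil protein of the mitotic spindle, were each dim on 1 control array and rose by 1.84 ± 0.16 (adjusted p = 0.0155) and 1.25 ± 0.12 (adjusted p = 0.0289), and with normexp they differed by 0.57 and 0.36. Raet1e, a stress ligand of natural killer cell receptors, rose by 1.06 ± 0.12 (adjusted p = 0.0388), from 0.28 and 0.16 to 1.33 and 1.23. The Wnt receptor gene Fzd6 rose by 1.08 ± 0.13 (adjusted p = 0.0475).

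Pluripotency genes were lower in level, with 0 of 24 called, 13 lower and 0 higher by unadjusted p and a median of -0.75. L1td1, an RNA-binding protein of stem cells, differed by -1.13 ± 0.16 (adjusted p = 0.0603), Lefty1, a Nodal antagonist, by -1.67 ± 0.31 (adjusted p = 0.0844) and Pou5f1, which encodes Oct4, by -1.34 ± 0.44 (adjusted p = 0.181). The summed level of 10 pluripotent cell markers was 14.5 and 13.3 in control and 9.52 and 9.10 in knockout cells. Genes of mitosis and DNA replication had small positive changes in all 31 members, 8 of them by unadjusted p, with a median of 0.27. Top2a, which untangles DNA, differed by 0.56 ± 0.15 (adjusted p = 0.134), while Mki67, the common marker of cycling cells, read 4.92 and 5.14 in control and 5.03 and 5.15 in knockout cells and so overlapped between groups.

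**Figure D4:**
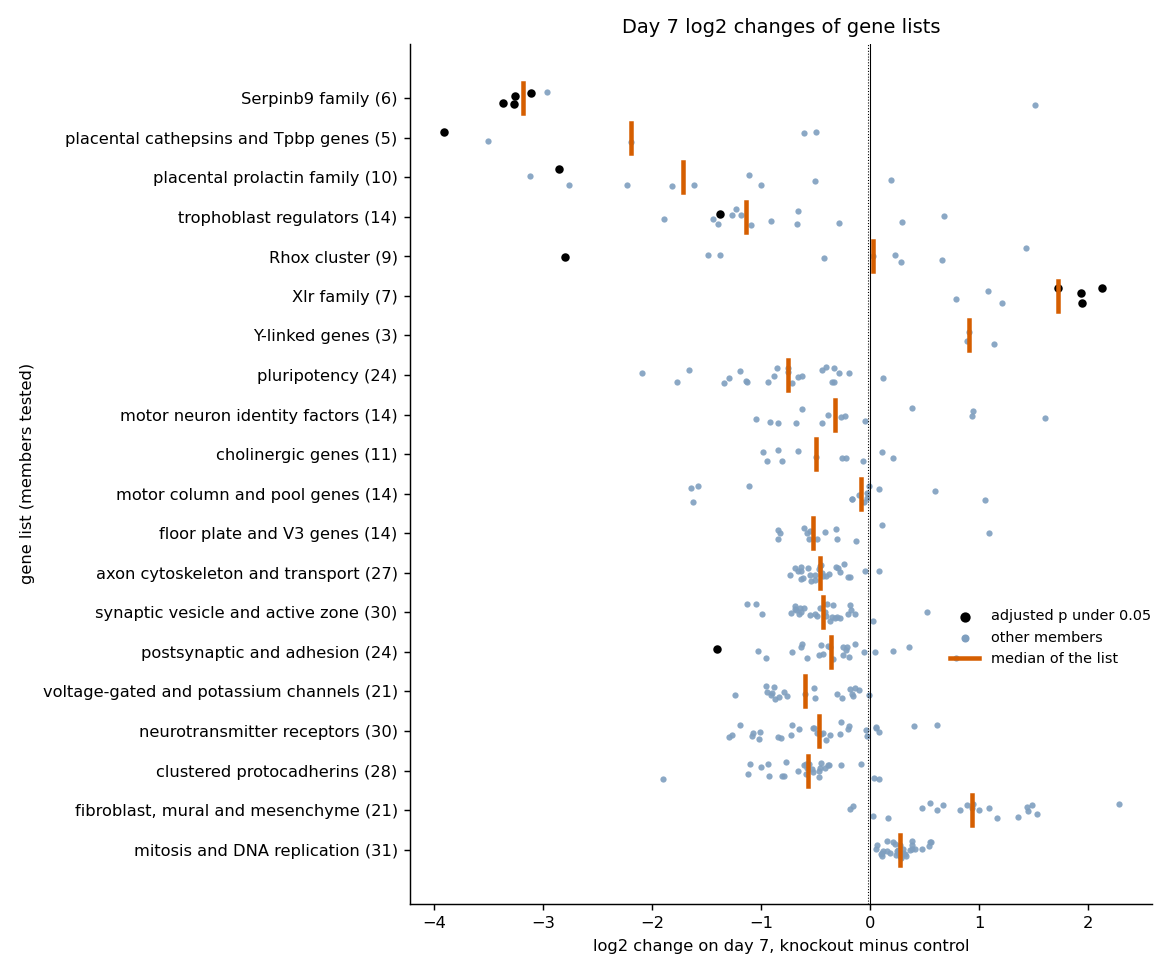
Log2 changes on day 7 (knockout minus control, horizontal axis) of the members tested in 20 gene lists, whose numbers are given in parentheses. Each point is a gene, black points have an adjusted p under 0.05, orange bars are list medians and the dotted line is the median of all genes, -0.015. The Serpinb9 family (median -3.19) and the Xlr family (1.72) hold 8 of the 13 black points. The medians of the neuronal lists lie below 0, with some members above it, and Camk2a is their only call.

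Genes without a symbol made up 21 of the 66 calls. Such a probe may belong to a gene that also has a symbol, so the calls may hold a gene more than once. The 2 of smallest p in each direction were XM_143529 and A_55_P2419299 among those that rose and AK049621 and A_55_P2156718 among those that fell. AK049621 read 3.38 and 3.38 in control and -0.52 and -0.25 in knockout cells, and fell by 3.77 ± 0.19 (adjusted p = 0.00378). It was called in 20 of the 22 settings tried, more than any other gene. A_55_P2156718 was below background in both knockout arrays, at -6.11 and -6.39 against -4.04 and -4.13 in control. It was at least 2.73-fold lower by the bound (adjusted p = 0.0156), and -0.61 with normexp. On the first knockout array its own reading lay above the limit of -6.22 and entered the bound. A_55_P2419299 rose by 2.40 ± 0.15 (adjusted p = 0.00918). XM_143529 was below background in both control arrays, at -6.33 and -6.36, and read -3.44 and -3.46 in knockout cells, at least 3.74-fold higher by the bound (adjusted p = 0.00378), and 0.75 with normexp.

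The 1225 named genes of chromosome 11 had a median change of 0.32, and 80.4% of them were positive. On the other 19 chromosomes (autosomes and X) medians lay between -0.03 and 0.06 and 44.1% to 59.7% of genes were positive. The Y chromosome had only 6 genes tested, with a median of 0.52. The shift was 0.34 between the arrays of replicate 1 and 0.30 between those of replicate 2, and 0.41 on day 9. Along chromosome 11, in 10 bins of 122 or 123 genes in gene order, the median ran from 0.22 to 0.37, so no bin stood at 0. By unadjusted p, 37.6% of its genes were higher and 2.78% lower. Igfbp4, Mfap4 and Ccdc69 lie on this chromosome and rose by more than its median, and Grb10 lies on it and fell. Without the genes of chromosome 11, 61 genes passed.

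**Figure D5:**
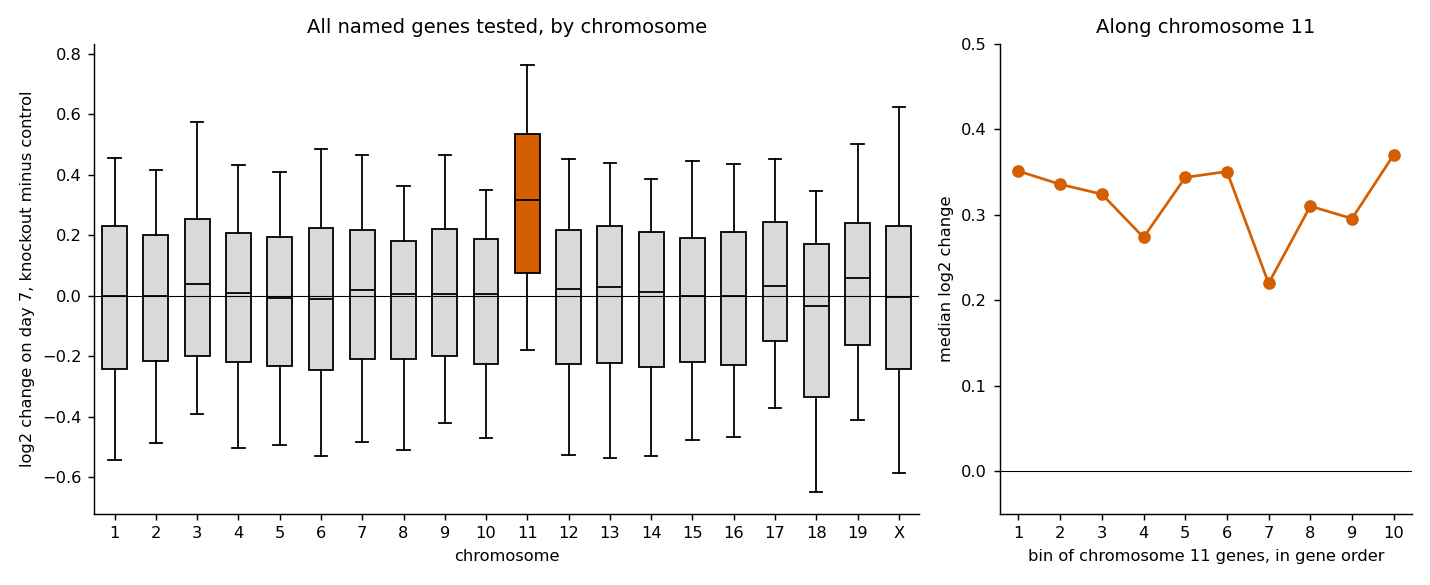
Left, log2 changes on day 7 (knockout minus control) of the named genes tested on each chromosome, as boxes from the 25th to the 75th percentile with the median as a line and whiskers at the 10th and 90th percentiles. Right, the median log2 change in each of 10 bins of chromosome 11 genes, in gene order. The Y chromosome is not drawn. Chromosome 11 (orange) has a median of 0.32, and every bin lies between 0.22 and 0.37.

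Most called day 7 changes had the same sign in the day 9 arrays. The day 7 comparison used those arrays for the estimate of spread and in the choice of each gene's brightest probe. Of the 66 called genes, 64 had the same sign on day 9 and 56 were also called there, where 5.67% of the same genes passed. Each gene has 1 estimate of spread for both days, so a call on day 9 is not independent of a call on day 7. Meg3 differed by 2.27 on day 9, H19 by 2.30, Serpinb9f by -3.32 and Xlr4a by 2.21. In 56 of the 66 the day 9 change was at least 50% of that of day 7, in 8 it was smaller and in 2 it had the other sign. Grb10 differed by -2.99 on day 9 and Cdkn1c by -1.36, both less than on day 7, while Camk2a at -0.34, Slc6a11 at -0.13 and Adgrd1 at 0.36 were among the 8. Adgrd1, and XM_143529 among the 2, were below background on every day 9 array, so their day 9 changes were not measured. The difference between the knockout effects of the 2 days was tested as an interaction term, and it passed for 1 gene, XM_143529 (0.0042% of genes, against 1414, or 5.94%, by unadjusted p), whose probe was above background only on the 2 knockout arrays of day 7, so that the difference has no measured size. For the interferon effectors that difference was negative in 52 of 56, with a median of -1.40 and an unadjusted p under 0.05 in 22, but the smallest adjusted p was 0.643. Isg15 differed by 1.08 on day 9 and Ifit1 by 0.88.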

How the data were processed

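RNA abundance was measured on 1-colour Agilent arrays. The submitters' processing notes name Agilent Feature Extraction 10.5.1. The deposited processed signal is an intensity that this software had corrected for background within each array, per the file headers, and arrays were not scaled to each other. The authors' deposited log2 values of the same arrays served only as an alternative, and their offset is unknown.

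Control spots and outlier spots were left out, spots of a probe were averaged as log2, and each array's 75th percentile was subtracted. Probes well above background on both arrays of either day 7 group were kept, and the kept probe that was brightest over all 8 arrays stood for a gene. Of 55681 probes, 26347 (47.3%) were named through RefSeq accessions and the GRCm38.p6 gene table, and 16194 carry only an mm9 position. Of the 23815 genes tested, 14655 had a symbol, and kept probes of 1 gene were called in opposite directions in 0 genes. The fit had 4 group means over 8 arrays (limma 3.58.1, R 4.3.3, lmFit and eBayes) with 4 residual and 2.64 prior degrees of freedom. Of the genes tested, 11 had a missing value on an array, which limma left out. All arrays shared 1 slide and 1 scan, so neither was tested as a batch. The mean signal column was absent, so normexp, an alternative, used the median signal and median background. The fit was tested on simulated data.

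The members and the 47 gene lists were chosen with earlier results of these data known. Named genes are called genes with a symbol, up to 2 called probes without a symbol in each direction, preset imprinted, interferon, Serpinb9, Xlr, motor neuron and Y-linked genes, and the list members of smallest p with others by role; a few genes under this rule are not reported here. Xist, a preset gene, gave no usable value: its control arrays differed by more than the groups, at -5.64 and -3.45. Promoters are RefSeq's (GRCm38.p6). The number of arrays limits the precision.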

Additional observations from a re-analysis of the deposited data

Results flagged for a closer look

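The unnamed transcript XM_143529 was picked out because its knockout effect differed between the days in the fit's test of that difference, where the day 9 effect minus the day 7 effect came to -3.01 (log2, adjusted p = 0.0368). That value is no estimate of a size, since the probe was above background only on the 2 knockout arrays of day 7. On day 7 it was below background in both control arrays and above it in both knockout arrays. On day 9 it was below background on all 4 arrays, at -5.91 and -5.67 in control and -5.92 and -5.90 in knockout cells, so its day 9 effect was not measured. It was 0.75 on day 7 with normexp background correction.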

How the results depend on the processing

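The 66 calls of day 7 numbered 67 under quantile normalization, 65 under median scaling, 68 with the authors' deposited values, 50 with a filter over all 4 groups, 93 with probes above background on all 4 day 7 arrays, 69 with the mean of a gene's probes, 67 with the 75th percentile taken over spots and 61 without chromosome 11. Calls numbered 21 with normexp background correction, 0 with no filter on dim probes (3881 by unadjusted p in limma), 4 with the day 7 arrays only, 353 with an intensity trend and 142 without the control day 9 group, a setting chosen after seeing the data. Leaving out each array in turn gave 0 to 142 calls, the 0 without the second control array of day 7, where the lone array left in a group is assumed to vary like the other groups. The cause of these shifts was not tested. Median scaling moved the median of all genes to 0.083 and the higher calls from 31 of 66 (47.0%) to 39 of 65. The replicate numbers do not say that they pair the samples (the deviations of same-numbered arrays correlated at 0.463), and with a replicate block 130 genes passed, 59 of them among the 66. The 1 call of the difference between days became 0 in 13 settings: quantile normalization, median scaling, normexp, the authors' values, no filter, the filter on all 4 day 7 arrays, the block, the trend and 5 of the 8 arrays left out, over which it ranged from 0 to 1. Of the single-gene values under other settings, 428 no longer passed the threshold, 126 newly passed it, and of 1034 list medians 207 moved by more than the spread between replicates or changed sign. In 43 of the 161 named genes the log2 change was smaller by over 1.5 times with normexp. Of all 3511 single-gene values, 6 had another sign, all for genes whose groups overlap: leaving out each array gave -0.039 to 0.551 for Igf2, -0.055 to 0.170 for Mki67 (-0.0001854 in its other reversal) and -1.30 to 1.60 for Rbmy, which was -0.51 with the mean of its probes. Probes at background give only bounds, and 2 arrays a group limit every test.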

Other observations

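A few transcripts without a symbol are named here after their values were seen. Some had values that rest on 1 array or that changed sign between days. The probe of ENSMUST00000133090 had the largest log2 change of all genes tested, 5.80 ± 3.11, with an adjusted p of 0.365: it read 9.02 on the second knockout array and -2.30 on the first, against -2.22 and -2.66 in control cells. A_55_P2035335 was called on day 7 (1.22 ± 0.14, adjusted p = 0.0364) and read lower in knockout cells on day 9, at -1.18, with an adjusted p of 0.0955 for the difference between the days. NR_001592, an accession without a match in the gene table, rose by 1.84 ± 0.19 on day 7 (adjusted p = 0.0302), from 5.38 and 5.48 in control to 7.12 and 7.44 in knockout cells. It differed by 1.76 on day 9, with the same sign. Which gene it belongs to was not determined, so it may repeat a gene named above.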
